A study of Mus musculus with 21 samples.

Results

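This section covers 10 genes that encode cytosolic heat shock chaperones and their closest helpers, Hspa8, Hspa1a, Hspa1b, Hspa4, Hsph1, Dnaja1, Dnajb1, Bag3, Hsp90aa1 and Hsp90ab1, chosen by gene symbol from the 22058 protein-coding genes of the count table. None of the 7 members with enough counts to be tested passed the test for a difference between eIF2B HOM and wild-type brains, and 3 members (Hspa1a, Hspa1b and Bag3) were too low to be tested. Between the 2 batches of mice, 5 of the 7 were higher in batch 2, in which the mice were also younger and the libraries deeper. Of all 9192 genes tested, 21.6% were called between the batches in either direction and 10.2% as higher in batch 2.

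The tested animals were 9 eIF2B HOM mice, homozygous for the R191H point mutation knocked in to the endogenous Eif2b5 gene, with no Cre and no tissue restriction. They were set against 12 wild-type mice, and every mouse was on the C57Bl6/J background with no treatment named in the labels. The eIF2B HOM group had 5 females and 4 males aged 93 to 114 days, 4 in batch 1 and 5 in batch 2, and the wild-type group had 7 females and 5 males aged 90 to 114 days, 8 in batch 1 and 4 in batch 2. RNA came from the anterior right hemisphere of the brain as bulk tissue and was read from the 3′ ends of polyadenylated transcripts (QuantSeq), with molecular identifiers used to remove PCR duplicates. In bulk tissue, fewer cells of a type and less RNA per cell cannot be told apart.

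The protein eIF2B recharges the initiation factor eIF2, and its loss of function lowers translation and switches on the integrated stress response (ISR), in which ATF4 and related factors induce genes of amino acid supply and redox balance. The heat shock response is a different programme. Unfolded cytosolic proteins draw chaperones away from the transcription factor HSF1, which then trimerises and binds heat shock elements, arrays of short inverted repeats upstream of chaperone genes. Its products belong to one folding system: HSP70 proteins bind exposed hydrophobic stretches, J-domain proteins deliver substrate and trigger ATP hydrolysis, nucleotide exchange factors release the substrate, and HSP90 proteins act later, on near-folded clients such as kinases and steroid receptors. Hspa8, Hsp90ab1 and Hspa4 are constitutive in most cells including neurons, whereas Hspa1a, Hspa1b, Dnajb1 and Bag3 are classic strongly heat-inducible genes.

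The stretches upstream of the stress-inducible HSP70 pair are shown because they hold a match to the letters of the heat shock element and because the pair is nearly identical. They come from RefSeq windows on the GRCm38.p6 build, each running from 250 bases before a transcription start to 50 bases after it, which were found for 7 of the 10 members. Capitals mark a pair of inverted repeats, GAANNTTC or TTCNNGAA, each of which reads the same on both strands.
Hspa1a, chr17:34972157-34972406, minus strand: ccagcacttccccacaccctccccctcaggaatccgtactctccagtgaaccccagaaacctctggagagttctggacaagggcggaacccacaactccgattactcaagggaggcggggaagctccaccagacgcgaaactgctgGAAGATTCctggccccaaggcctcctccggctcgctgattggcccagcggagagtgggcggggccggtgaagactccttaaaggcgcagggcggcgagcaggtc
Hspa1b, chr17:34959239-34959488, minus strand: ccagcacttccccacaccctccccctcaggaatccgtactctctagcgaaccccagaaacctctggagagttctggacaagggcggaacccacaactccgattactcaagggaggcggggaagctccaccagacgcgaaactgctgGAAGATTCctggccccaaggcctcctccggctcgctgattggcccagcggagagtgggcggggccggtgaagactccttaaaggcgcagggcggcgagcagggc
Hsph1, chr5:149636351-149636380, minus strand: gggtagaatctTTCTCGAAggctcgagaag
Dnaja1, chr4:40722333-40722362, plus strand: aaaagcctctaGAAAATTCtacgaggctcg
These 250 bases differed at 3 positions between Hspa1a and Hspa1b (98.8% identical), and in both the repeat pair began 104 bases before the start. The Hsph1 and Dnaja1 stretches are 30 bases around the match in 1 window of each gene, which began 33 bases before the start in Hsph1 and 124 bases before it in Dnaja1.

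A repeat pair lay in at least 1 window of 5 of the 7 members with a window (Hspa1a, Hspa1b, Hsph1, Dnaja1 and Bag3), and in the windows of 17% of all 27025 genes in the RefSeq table. A run of 3 repeats, GAANNTTCNNGAA or TTCNNGAANNTTC, which contains the pair, lay in the windows of Hsph1 alone among these members, and in those of 0.662% of all genes. In the windows of Hspa4 and Dnajb1 these letters were not found. The Hsph1 run lay after the start, beginning at transcribed base 16 in 1 window and 37 in the other. The Bag3 pair also lay after the start, beginning at transcribed base 43. The Hsph1 match printed above is a separate pair. A match of letters is a description of the sequence, not of binding.

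How well 3′ reads separate a member from its relatives differed between genes. In the GENCODE M21 transcripts, none of the 100-base stretches within the last 500 bases of the coding transcripts of Hspa1a or Hspa1b occurred in a transcript of another gene, so the 2 copies differ where this assay reads them. For Hspa8, 60.1% of such stretches occurred in transcripts of 9 other annotated genes. For Dnaja1 the share was 59.2% (4 other genes), for Hsp90aa1 17.3% (2 other genes), and for the remaining members 0. The search covered both strands, so a share can include a transcript that overlaps the same place on the opposite strand. It is not a share of reads that align to several places. How such reads and the strand of reads were treated in counting is not given in the sources used here. The levels of Hspa8, Dnaja1 and Hsp90aa1 are therefore uncertain.

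**Figure D1:**
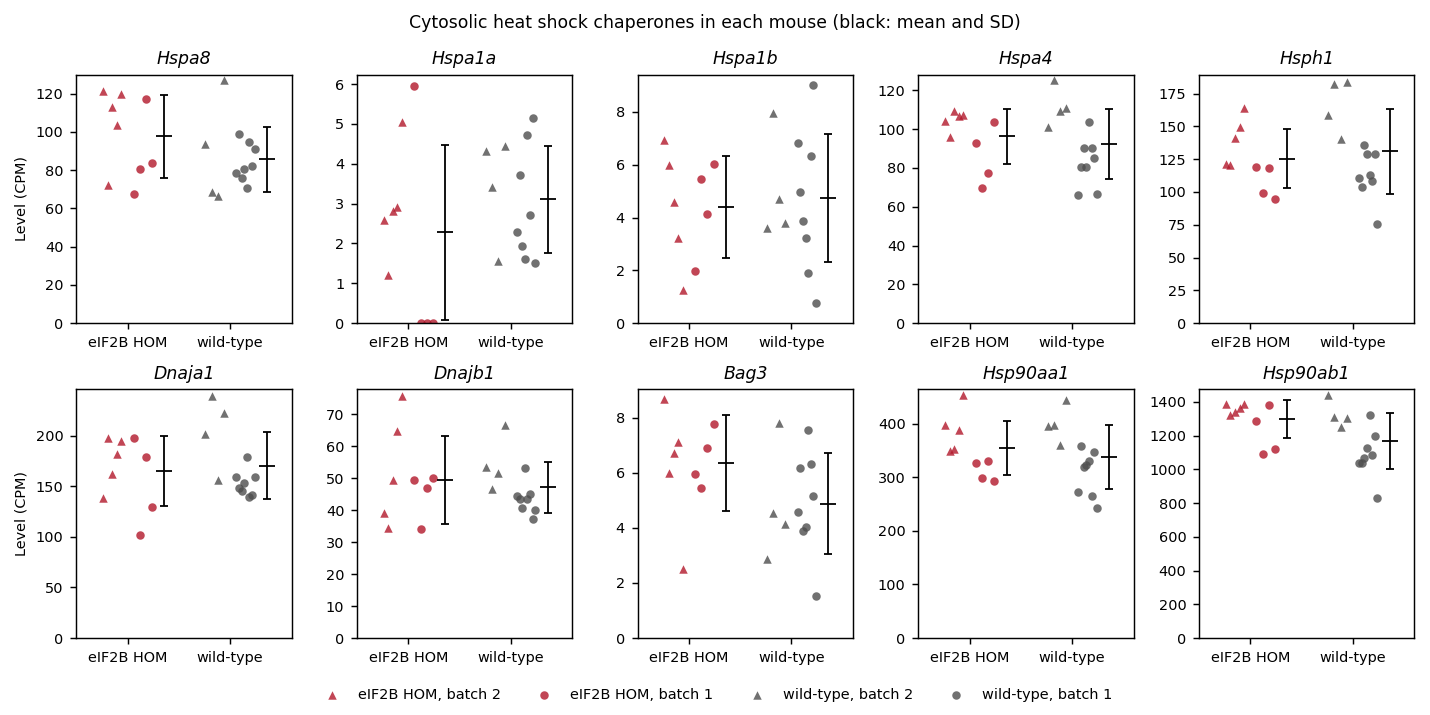
Level of each of the 10 chaperone genes in each mouse, in counts per 1000000 (CPM), with eIF2B HOM mice in red and wild-type mice in grey, triangles for batch 2, circles for batch 1, and black marks for the mean and SD of a genotype. The genotypes overlap in all 10 panels, and in Hspa4, Hsph1 and Hsp90aa1 7 of the 9 batch 2 triangles lie above every batch 1 circle.

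The first question was whether the chaperones of a heat shock response moved with genotype beside the ISR. Levels are CPM on TMM-scaled library sizes. Counts of 100 or more were deposited with at most 2 significant digits, so the levels of the abundant members are rounded in each mouse. Fold changes are log2 ratios of eIF2B HOM over wild-type from edgeR's quasi-likelihood test with sex and age as covariates, with a gene called at a Benjamini-Hochberg adjusted p under 0.05 over all 9192 genes tested. None of the 7 tested members was called in either direction by this test, against 4.32% of all genes tested. At an unadjusted p under 0.05 there was 1 member, Hsp90ab1, against 16.5% of all genes. DESeq2 and limma's voom with quality weights also called none, with 1 and 2 members at an unadjusted p under 0.05. The median log2 fold change was 0.08 over the 7 members and -0.01 over all genes tested, with 5 members above 0 and 2 below it. Every one of the 7 intervals (95%) lay between 0.85-fold and 1.31-fold.

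Among the HSP70 proteins, Hspa8 (ENSMUSG00000015656, chr9:40800984-40810087) encodes HSC70, the constitutive member that also strips clathrin from vesicles and feeds chaperone-mediated autophagy. Hspa8 spanned 67.4 to 121 CPM with a median of 104 in eIF2B HOM brains, against 66.5 to 127 CPM with a median of 81.5 in wild-type brains. The values overlapped throughout, and its log2 fold change was 0.17 ± 0.11 (SE, 95% interval -0.04 to 0.39, edgeR adjusted p = 0.451). Within batch 1 its log2 fold change was 0.03 and within batch 2 it was 0.23, neither called.

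Hspa1a (chr17:34969190-34972156) and Hspa1b (chr17:34956436-34959238) encode the stress-inducible HSP70, which cells hold at a low level until heat or proteotoxic stress. Hspa1a had 0 counts in 3 of the 9 eIF2B HOM mice, reached 5.94 CPM there and had a median of 2.60 CPM, against 1.51 to 5.15 CPM with a median of 3.06 in wild-type brains. Hspa1b spanned 1.26 to 6.93 CPM with a median of 4.59 in eIF2B HOM brains, against 0.757 to 9.01 CPM with a median of 4.29 in wild-type brains. These are 36 counts over all eIF2B HOM libraries and 54 over all wild-type libraries for Hspa1a, and 59 and 79 for Hspa1b.

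Both genes overlapped between genotypes. The difference of mean log2 CPM (prior count 2) was -0.50 for Hspa1a (exact permutation test, 2-sided p = 0.127) and -0.05 for Hspa1b (p = 0.854 by the same exact test over 293930 assignments). The 3 mice without a Hspa1a read were all in batch 1, and 2 of them had the shallowest libraries, where 3 counts would be 4.14 and 4.09 CPM. Without the 5 libraries under 1000000 counts the Hspa1a difference was -0.10 (exact p = 0.758), and without eIF2B HOM replicate 1 it was -0.66 (exact p = 0.0416). Within batch 1 it was -0.99 (exact p = 0.0646) and within batch 2 -0.18 (exact p = 0.532), and it was -1.21 in males alone (exact p = 0.0317) and 0.053 in females alone (exact p = 0.908). These p-values are not adjusted for the number of subsets, and the difference between the sexes was not tested for this gene. The male eIF2B HOM replicates 3 and 4 had 0 counts, so the prior count set their log2 CPM. With the 2 copies summed, the level was 4.14 to 9.53 CPM in eIF2B HOM brains and 2.27 to 14.2 CPM in wild-type brains, and the difference was -0.13 (exact permutation p = 0.526).

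Hspa4 and Hsph1 encode HSP110 proteins, which act as nucleotide exchange factors for HSP70 and take part in pulling apart aggregates. Hspa4 (chr11:53259814-53300457) spanned 69.5 to 109 CPM with a median of 104 in eIF2B HOM brains, against 66.1 to 125 CPM with a median of 90.2 in wild-type brains. Its log2 fold change was 0.08 ± 0.08 (SE, edgeR adjusted p = 0.727), and the wild-type values enclosed those of every eIF2B HOM mouse.

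Hsph1 (chr5:149614287-149636376), the heat-inducible one of the 2, spanned 94.97 to 164 CPM with a median of 120 in eIF2B HOM brains, against 75.7 to 184 CPM with a median of 129 in wild-type brains. Its log2 fold change was -0.04 ± 0.08 (SE, edgeR adjusted p = 0.864). Here too no eIF2B HOM mouse lay outside the wild-type range. Within batch 1 the log2 fold change of Hsph1 was -0.06. Within batch 2 it was -0.23 (95% interval -0.45 to -0.009, edgeR adjusted p = 0.533), and neither was called.

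Dnaja1 (chr4:40722150-40737149) and Dnajb1 (chr8:83608193-83612653) are J-domain proteins, which hand unfolded substrate to HSP70 and start its ATPase cycle. Dnaja1 spanned 102 to 198 CPM with a median of 179 in eIF2B HOM brains, against 140 to 239 CPM with a median of 158 in wild-type brains, and Dnajb1 34.1 to 75.6 CPM with a median of 49.4 in eIF2B HOM brains, against 37.3 to 66.7 CPM with a median of 44.8 in wild-type brains. For Dnaja1, 3 eIF2B HOM mice lay below all wild-type mice and 3 wild-type mice above all eIF2B HOM mice. The log2 fold changes were -0.03 ± 0.10 for Dnaja1 and 0.06 ± 0.11 for Dnajb1 (SE, edgeR adjusted p of 0.913 and 0.847). Within batch 1 they were -0.004 and 0.06, and within batch 2 -0.22 and -0.01, none called. The Dnaja1 medians were 154 CPM in eIF2B HOM and 151 CPM in wild-type mice of batch 1. In batch 2 they were 182 and 212 CPM.

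Bag3 (chr7:128523616-128546981) is the stress-inducible exchange factor that couples HSP70 to small heat shock proteins and selective autophagy. It spanned 2.52 to 8.67 CPM with a median of 6.70 in eIF2B HOM brains, against 1.51 to 7.82 CPM with a median of 4.56 in wild-type brains, from 89 and 81 counts in all. In 8 of 9 eIF2B HOM mice the level exceeded the wild-type median, and the difference of mean log2 CPM was 0.33 (exact permutation p = 0.107). Leaving out eIF2B HOM replicate 9, the lowest eIF2B HOM mouse, gave a difference of 0.44 (exact permutation p = 0.0163, unadjusted). Within batches the difference was 0.39 in batch 1 (exact p = 0.17) and 0.28 in batch 2 (exact p = 0.429).

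Hsp90aa1 (chr12:110690605-110702728) is the inducible and Hsp90ab1 (chr17:45567775-45573271) the constitutive cytosolic HSP90. Hsp90aa1 spanned 294 to 454 CPM with a median of 349 in eIF2B HOM brains, against 242 to 444 CPM with a median of 339 in wild-type brains, and its log2 fold change was 0.08 ± 0.08 (SE, edgeR adjusted p = 0.66). Hsp90ab1 spanned 1090 to 1387 CPM with a median of 1341 in eIF2B HOM brains, against 833 to 1443 CPM with a median of 1162 in wild-type brains. For this gene 7 of 9 eIF2B HOM mice exceeded the wild-type median and 5 wild-type mice lay below every eIF2B HOM mouse. All 5 were of batch 1, which held 8 of the 12 wild-type mice and 4 of the 9 eIF2B HOM mice. The medians and ranges over all mice therefore mix genotype with batch.

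Hsp90ab1 had the smallest p among the members, with a log2 fold change of 0.16 ± 0.07 (SE, 95% interval 0.01 to 0.31, edgeR unadjusted p = 0.0355, adjusted p = 0.254). Over 36 alternatives its adjusted p stayed between 0.133 and 0.967. The difference of mean log2 CPM between genotypes was 0.16 (exact permutation p = 0.0599), with 0.17 within batch 1 (exact p = 0.168) and 0.04 within batch 2 (exact p = 0.413).

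**Figure D2:**
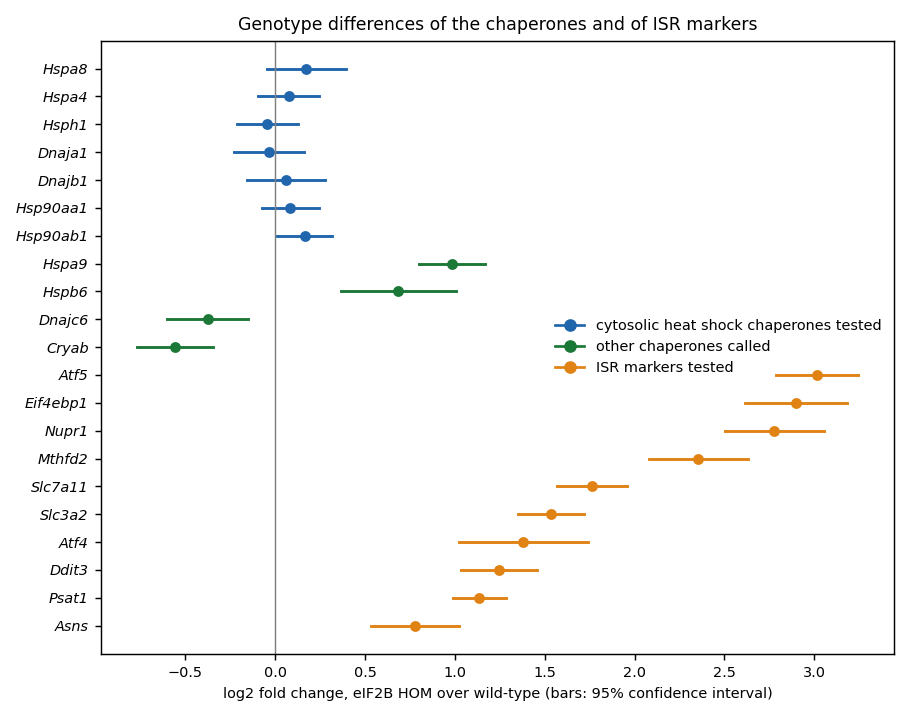
Log2 fold change of eIF2B HOM over wild-type with its 95% interval for the 7 tested cytosolic chaperones (blue), the 4 called genes of the other chaperone lists (green) and the 10 tested ISR markers (orange). The blue points lie between -0.04 and 0.17 and the orange ones between 0.78 and 3.02.

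In the same libraries, all 10 tested genes of a list of 13 ISR markers were higher in eIF2B HOM brains, with a median log2 fold change of 1.65 and a range of 0.78 to 3.02. Atf5, an ISR transcription factor, averaged 173 ± 27.0 CPM in eIF2B HOM brains and 20.9 ± 5.96 CPM in wild-type brains (SD, n = 9 and 12), and its lowest eIF2B HOM value of 128 CPM lay above its highest wild-type value of 31.0 CPM. Eif2b5, the targeted gene, averaged 42.1 ± 6.74 CPM in eIF2B HOM brains and 38.7 ± 5.60 CPM in wild-type brains (SD, edgeR adjusted p = 0.759), and a point mutation need not change its mRNA level. Total counts ran from 727018 to 2918902 in eIF2B HOM libraries and from 827862 to 3100141 in wild-type libraries.

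The wider chaperone network was described with lists of its other parts, chosen with earlier results of these data known. The counts called in each list stand beside 4.32% of all genes tested that were called by genotype. Of 20 tested genes among the 21 of the other HSP70 system (further HSP70s, J-domain proteins and BAG exchange factors), 0 rose and 1 fell: Dnajc6, the neuronal auxilin that recruits HSC70 to clathrin coats. Dnajc6 spanned 34.5 to 90.1 CPM with a median of 56.5 in eIF2B HOM brains, against 57.1 to 100.3 CPM with a median of 76.2 in wild-type brains, a log2 fold change of -0.38 ± 0.11 (SE, edgeR adjusted p = 0.0441). In 5 of the 9 eIF2B HOM mice it lay below every wild-type mouse, while the median of the list was -0.01.

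No gene of the HSP90 co-chaperones (14 of 15 tested, median log2 fold change 0.02), of the CCT chaperonin and prefoldin (13 of 14 tested, median -0.02) or of the heat shock factors with Hsbp1 (2 of 4 tested, median -0.04) was called by edgeR. Those with the smallest p were the kinase co-chaperone Cdc37 (0.22 ± 0.08, SE, adjusted p = 0.142), Cacybp (-0.19 ± 0.08, adjusted p = 0.185) and the steroid receptor immunophilin Fkbp4 (0.19 ± 0.11, adjusted p = 0.365). In the prefoldin complex, which delivers nascent actin and tubulin to CCT, they were Vbp1 (-0.27 ± 0.09, adjusted p = 0.0636), Pfdn5 (-0.29 ± 0.11, adjusted p = 0.126) and Pfdn4 (-0.36 ± 0.15, adjusted p = 0.195). Hsf1 itself was not tested, and Hsf2 had a log2 fold change of 0.15 ± 0.13 and Hsbp1, which binds HSF1, one of -0.22 ± 0.08 (SE, adjusted p of 0.645 and 0.126).

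Small heat shock proteins, which hold unfolded proteins without ATP, were tested for 3 of 7 genes, and 1 rose and 1 fell. Hspb6, also called HSP20, rose, with 12.1 to 26.5 CPM and a median of 19.3 in eIF2B HOM brains against 4.54 to 16.2 CPM and a median of 10.7 in wild-type brains (log2 fold change 0.68 ± 0.16, SE, edgeR adjusted p = 0.00538). In 5 of 9 eIF2B HOM mice it lay above every wild-type mouse. Cryab, the alpha-B crystallin that oligodendrocytes and astrocytes make in quantity, fell, with 57.7 to 106 CPM and a median of 69.3 in eIF2B HOM brains against 68.3 to 154 CPM and a median of 107 in wild-type brains (log2 fold change -0.56 ± 0.10, SE, edgeR adjusted p = 0.000362). In the batch comparison given below, Cryab was also lower in batch 2 (log2 difference -0.49 ± 0.11, SE, edgeR adjusted p = 0.00196).

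Beside these 2 genes, Mbp, the myelin basic protein gene of oligodendrocytes, was lower, with 2205 to 4631 CPM in eIF2B HOM brains and 2603 to 7042 CPM in wild-type brains (log2 fold change -0.49 ± 0.09, SE, edgeR adjusted p = 0.000564). The oligodendrocyte markers ran from -0.66 to 0.19 in log2 fold change by genotype, so Mbp does not stand for all of them. Of 6 astrocyte markers 1 was lower (Slc1a2) and 1 higher (Gfap), with a summed level of 2911 to 6108 CPM in eIF2B HOM brains and 4723 to 8670 CPM in wild-type brains, and none of these 6 was at 0 in every mouse. Most of that sum was Slc1a2, and the other 5 summed to 706 to 1393 CPM in eIF2B HOM brains and 596 to 1186 CPM in wild-type brains. The part of these cells in the Cryab and Hspb6 results was not tested.

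Of 13 tested genes among 15 further HSF1 targets, 0 rose and 1 fell, again Cryab, against 4.32% of all genes called. The median log2 fold change of the 13 tested targets was -0.07. Serpinh1 and Hspb1 of this list did not pass the filter. Serpinh1 ranged from 2.76 to 19.1 CPM (median 6.91) in eIF2B HOM brains and from 0 to 7.57 CPM (median 3.64) in wild-type brains. Hspb1 ranged from 1.73 to 9.88 CPM (median 6.81) and from 1.61 to 12.9 CPM (median 3.84), in the same order. Neither difference was tested, so the count of 0 that rose does not cover these genes. Of 10 tested genes among 11 chaperones of the endoplasmic reticulum and mitochondria, 1 rose: Hspa9, the mitochondrial HSP70. It spanned 164 to 300 CPM with a median of 188 in eIF2B HOM brains, against 82.4 to 131 CPM with a median of 99.7 in wild-type brains, so that all 9 eIF2B HOM mice lay above all wild-type mice (log2 fold change 0.98 ± 0.09, SE, edgeR adjusted p = 9.73e-11). The median of that list was 0.06.

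**Figure D3:**
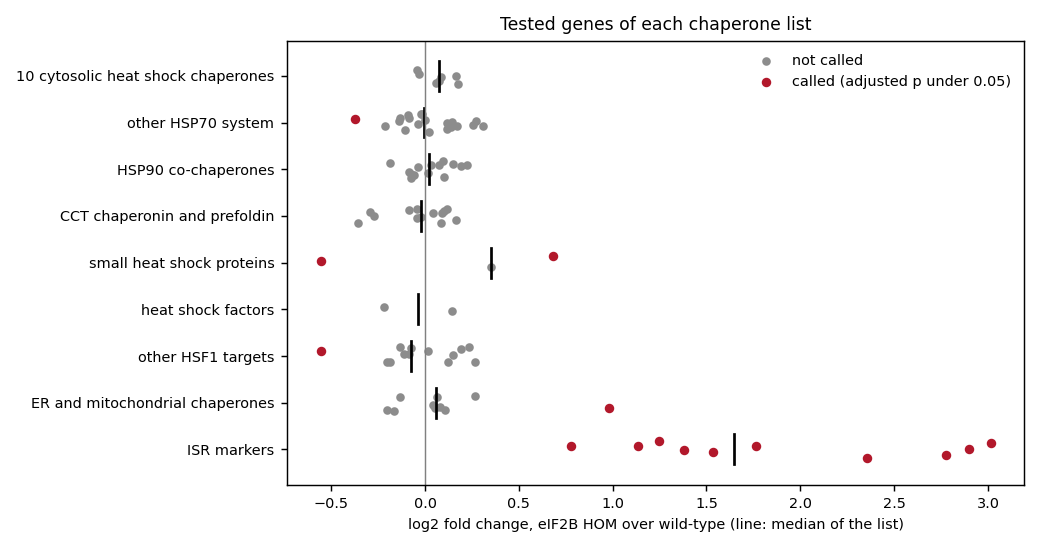
Log2 fold change of eIF2B HOM over wild-type for each tested gene of 9 lists, with called genes in red, others in grey and a black line at the median of a list. The medians of the cytosolic chaperone lists with more than 3 tested genes lie between -0.07 and 0.08, and that of the ISR markers at 1.65.

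Lists that follow handling, time of day or temperature were read beside the members. No gene was called by genotype among 9 tested clock output genes (smallest p in Per1, 0.47 ± 0.17, Arntl, -0.35 ± 0.16, and Per3, -0.19 ± 0.13, log2 fold change and SE), 7 immediate early genes (Egr1, 0.28 ± 0.20, Nr4a1, 0.37 ± 0.34, and Egr4, 0.21 ± 0.21) or 4 glucocorticoid-induced genes (Sgk1, 0.30 ± 0.16, Zbtb16, 0.18 ± 0.16, and Fkbp5, 0.10 ± 0.19). The cold-induced Cirbp had a log2 fold change of 0.08 ± 0.10. The adjusted p of the 10 tested genes named here by edgeR lay at 0.134 or above.

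The second comparison set the 9 mice of batch 2 against the 12 of batch 1, in an edgeR fit with genotype and sex. Of the 7 tested members, 5 were higher in batch 2 and 0 lower. Over all 9192 genes, 21.6% were called in either direction and 10.2% as higher. The median log2 difference was 0.32 over the members and 0.00 over all genes, and all 7 members were above 0.

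Hsph1, the HSP110 member, spanned 120 to 184 CPM with a median of 149 in batch 2, against 75.7 to 136 CPM with a median of 112 in batch 1 (log2 difference 0.44 ± 0.09, SE, edgeR adjusted p = 0.000646). Hsp90aa1 spanned 349 to 454 CPM with a median of 397 in batch 2, against 242 to 359 CPM with a median of 321 in batch 1 (0.34 ± 0.08, adjusted p = 0.00287). In both genes 7 of the 9 batch 2 mice lay above every batch 1 mouse.

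Hspa4 spanned 96.1 to 125 CPM with a median of 107 in batch 2, against 66.1 to 104 CPM with a median of 82.8 in batch 1 (log2 difference 0.36 ± 0.09, SE, edgeR adjusted p = 0.00468). Again 7 of 9 batch 2 mice exceeded all batch 1 mice. Dnaja1, with 139 to 239 CPM in batch 2 against 102 to 198 CPM in batch 1, and Hsp90ab1, with 1251 to 1443 CPM in batch 2 against 833 to 1379 CPM in batch 1, overlapped more widely and had log2 differences of 0.32 ± 0.10 and 0.24 ± 0.08 (adjusted p of 0.0191 and 0.0248).

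The clathrin-uncoating Hspa8 (0.20 ± 0.12, edgeR adjusted p = 0.259) and the inducible Dnajb1 (0.23 ± 0.12, adjusted p = 0.181) did not pass. Of the members below the filter, the difference of mean log2 CPM between batch 2 and batch 1 was 0.40 for Hspa1a (exact permutation p = 0.226), 0.08 for Hspa1b (exact p = 0.784) and 0.02 for Bag3 (exact p = 0.919).

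Fitted within each genotype, batch 2 was higher in the 7 members in both, with log2 differences of 0.15 to 0.35 in eIF2B HOM mice alone, none called against 4% of all genes in that fit, and of 0.13 to 0.54 in wild-type mice alone, 4 called (Hspa4, Hsph1, Dnaja1 and Hsp90aa1) against 12.8% of all genes. Without eIF2B HOM replicate 2 the called members were 3, Hspa4, Hsph1 and Hsp90aa1 (13.6% of all genes called). Without the 5 libraries under 1000000 counts, all in batch 1, they were 2, Hsph1 and Hsp90aa1 (6.06% of all genes). Without wild-type replicate 9 the log2 difference of Hsp90ab1 was 0.22 and not called, which left 4 (16.4% of all genes). Mice of batch 2 were 90 to 104 days old and those of batch 1 104 to 114 days, and with age as a further covariate 0 members and 0% of all genes were called (smallest edgeR adjusted p of a member 0.789), so batch and age cannot be told apart. Total counts were 1108492 to 3100141 in batch 2 and 727018 to 2215650 in batch 1.

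Other gene groups moved with batch as well. Of 5 neuronal markers 4 were higher in batch 2, with a summed level of 2644 to 3701 CPM in batch 2 and 2050 to 2966 CPM in batch 1. Of 6 microglial markers 2 were higher and 0 lower, and of 6 astrocyte markers 0 were higher and 3 lower (median log2 difference -0.31). Among genes of oligodendrocytes, Mbp (-0.62) and Mobp (-0.38) were lower in batch 2 and Cnp (0.38) was higher. Olfactory bulb markers, of which none passed the filter and none was at 0 in every mouse, summed to 1.62 to 24.5 CPM in batch 2 and 4.56 to 55.6 CPM in batch 1. Of the other chaperone lists, 5 genes of the other HSP70 system were higher and 2 lower, 3 HSP90 co-chaperones were higher and 0 lower, and 6 further HSF1 targets were higher and 3 lower. In the CCT and prefoldin list 2 were higher and 2 lower, among chaperones of the endoplasmic reticulum and mitochondria 2 and 2, among small heat shock proteins 0 and 1, and among heat shock factors 0 and 0, beside 21.6% of all genes called in either direction and 10.2% as higher. The part of depth, age, cell type content and dissection in the batch difference was not tested.

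**Figure D4:**
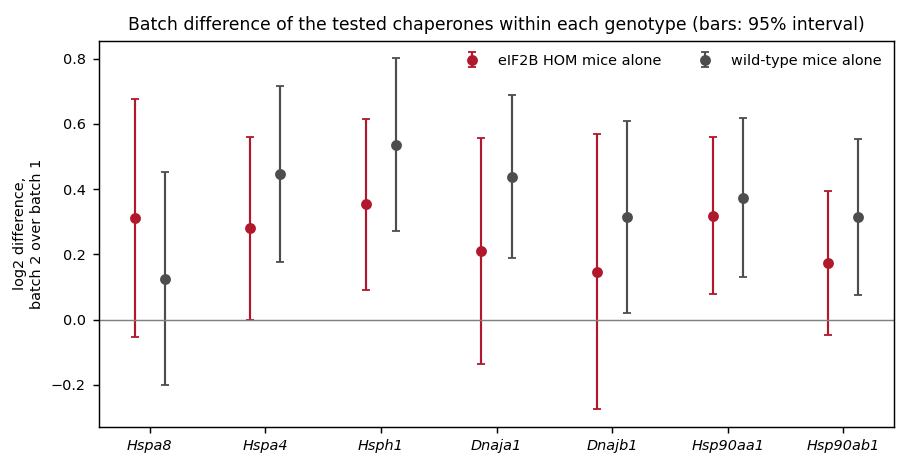
Log2 difference of batch 2 over batch 1 with its 95% interval for the 7 tested chaperones, fitted in eIF2B HOM mice alone (red, 5 mice against 4) and in wild-type mice alone (grey, 4 against 8). All 14 points are above 0, between 0.13 and 0.54.

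Sex and the interactions were tested in the same way. None of the 7 members was called between male and female mice by edgeR, with 0 at an unadjusted p under 0.05 and 0.0326% of all genes called. The members with the smallest p were Dnajb1 and Hsph1: Dnajb1 spanned 34.3 to 53.4 CPM in males and 34.1 to 75.6 CPM in females (log2 difference -0.19 ± 0.12, SE, adjusted p = 1.00), and Hsph1 75.7 to 159 CPM in males and 99.4 to 184 CPM in females (-0.16 ± 0.09). The interaction of genotype with sex called 0 members, and that of genotype with batch 0 members, with 0 at an unadjusted p under 0.05 in each and 0% of all genes called. The interaction terms of the members ran from -0.22 to 0.07 for sex and from -0.22 to 0.19 for batch, and the outermost ends of their 95% intervals were -0.66 and 0.68.

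Across the 21 mice the levels of many members were correlated, and within batches the median correlation was lower and fewer pairs passed. Over the 21 pairs of tested members, Pearson's r of log2 CPM had a median of 0.52 and passed a permutation test (100000 permutations over all mice, 2-sided, Benjamini-Hochberg adjusted over the pairs) in 14 pairs, and Spearman's rho in 11 of them. None of these included Hspa8, whose 6 pairs had r from 0.05 to 0.43. With levels centred within batch and mice permuted within batch, a test added after seeing the data, the median r was 0.34 and 1 pair passed, Hsph1 and Hsp90aa1, and with ranks within batch 0 pairs passed. The median r was 0.37 without Hspa8 and -0.08 with it within batch 1, and 0.31 and 0.29 within batch 2.

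The pair of Hsph1 and Hsp90aa1 had r = 0.84 over all mice (permutation p = 3e-05, adjusted p = 0.000315, and rho = 0.79, permutation p = 5e-05, adjusted p = 0.00105). Its r was 0.67 within batch 1, 0.66 within batch 2, 0.67 centred within batch (permutation adjusted p = 0.0349) and 0.75 without the 2 mice farthest from the Hsph1 median. Its rho within batches was 0.53 (permutation p = 0.0223, adjusted p = 0.453). The 2 HSP90 genes had r = 0.79 over all mice (permutation p = 1e-05, the smallest these permutations can give, adjusted p = 0.00021) and rho = 0.74 (adjusted p = 0.00189), with 0.67 within batch 1 and 0.31 within batch 2, and did not pass within batches (permutation adjusted p = 0.114). The genes of a library share its depth and tissue block.

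**Figure D5:**
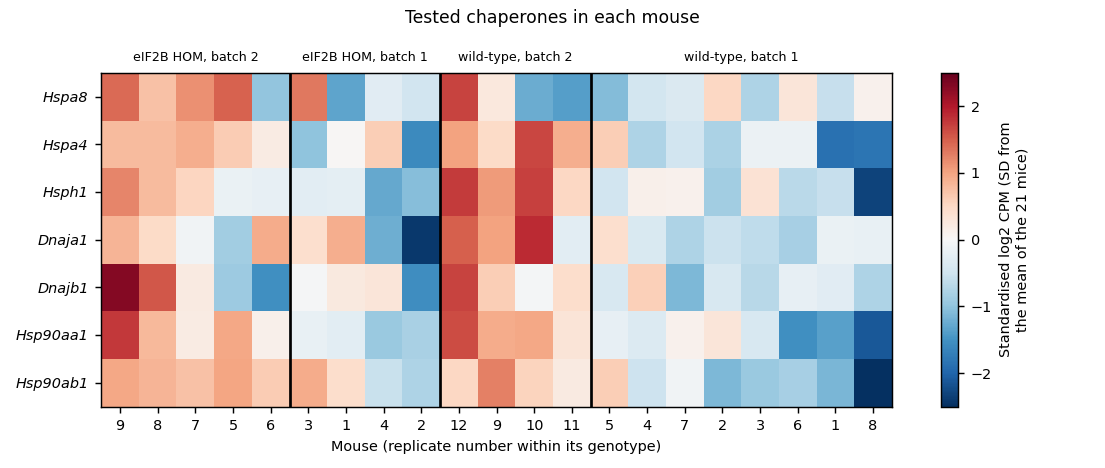
Log2 CPM of the 7 tested chaperones in each of the 21 mice, standardised per gene (red high, blue low), with mice grouped by genotype and batch and sorted by their mean. Wild-type replicate 12 and eIF2B HOM replicate 9, both of batch 2, have the highest means (1.40 and 1.33), and wild-type replicate 8 and eIF2B HOM replicate 2, both of batch 1, the lowest (-1.40 and -1.24).

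The mean of the 7 standardised levels placed 4 mice at the ends, 1 of each genotype at each end: eIF2B HOM replicate 9 at 1.33 and wild-type replicate 12 at 1.40, and eIF2B HOM replicate 2 at -1.24 and wild-type replicate 8 at -1.40. In eIF2B HOM replicates 7, 8 and 9 and wild-type replicates 9 and 12 all 7 members lay above their median over the mice, and in eIF2B HOM replicate 2 and wild-type replicate 1 none did. The 5 mice with all members high were all in batch 2 and the 2 with none were in batch 1. The 2 libraries with the highest means had 1560587 and 3100141 counts and the 2 with the lowest 773134 and 1417521.

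Outside the members, the 5 tested genes whose log2 CPM followed this mean most closely were Gprasp1 (r = 0.96), Ubb (0.94), Ldha (0.94), Aldoa (0.93) and Snap47 (0.93), given as a description over 21 mice. Within batch 1 the values were 0.84 to 0.95 and within batch 2 0.74 to 0.90. Ubb, a polyubiquitin gene, is also in the list of further HSF1 targets. Ldha and Aldoa are enzymes of glycolysis, and Gprasp1 sorts G protein-coupled receptors after endocytosis. All 5 were higher in batch 2 (edgeR log2 differences of 0.41 to 0.86), and none was called by genotype (0.10 to 0.24, smallest adjusted p = 0.128).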

How the data were processed

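The authors deposited raw gene counts, used here: per the methods, reads were trimmed (skewer), aligned with STAR to GRCm38.p6 with Gencode M17 and counted with featureCounts (Subread 1.6.2 in the submitters' processing notes). In the deposited counts, values of 100 or more have at most 2 significant digits, so small differences of high genes are blurred. Deposited CPM and annotation sheets were not used.

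Counts of 21 mice, 727018 to 3100141 per library, were filtered (filterByExpr by genotype), TMM-scaled and tested with edgeR 4.0.16 (R 4.3.3, robust quasi-likelihood fit of genotype, sex and age, as in the study's model, or genotype, sex and batch), with p-values adjusted over 9192 genes, and checked on simulated data. Low members and single values were tested by exact permutation of mean log2 CPM. Alternatives used limma 3.58.1, DESeq2 1.42.0, other scalings, filters, covariates and subsets, and left out each mouse. The named genes are all members, the called genes of each list (otherwise up to 3 with the smallest p), and the 5 genes most like the members. Members and lists were chosen with earlier results of these data known. No replicate pair agreed within sampling noise. Mice are the replicates, but litters are not given. The intervals given come from the edgeR quasi-likelihood fit, so they cover variation between mice as well as counting error. The counts and sums of the oligodendrocyte marker list are not reported here.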

Additional observations from a re-analysis of the deposited data

How the results depend on the processing

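By genotype, 0 members were called under all 15 alternatives and in each of the 21 fits without 1 mouse (range 0 to 0), with smallest adjusted p-values between 0.133 and 0.79. In the main fit 4.32% of all genes were called, and 0 calls among 7 members is little different from that share. The fits of 1 batch or 1 sex hold fewer mice. Without the filter, or with the 2 Hspa1 copies summed, the low members were tested and not called, and summed they did not pass the main filter. No sex alternative gave a call.

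By batch, the 5 calls became 0 in eIF2B HOM mice alone, 0 with age as a further covariate and 2 without libraries under 1000000 counts, the last 2 choices made after seeing the data, as was leaving out each mouse (3 to 5 calls). The cause was not tested.

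Signs turned where values were near 0 and uncalled. For genotype these were Hspa4 (-0.017) and Hsp90aa1 (-0.0016) with batch in place of age, Hspa4 (-0.070), Dnajb1 (-0.014) and Hsp90aa1 (-0.033) in batch 2 alone, Dnajb1 in males alone (-0.068), Dnaja1 without eIF2B HOM replicate 2 (0.0076; range -0.11 to 0.0076) and Dnajb1 without replicate 9 (-0.0039; range -0.0039 to 0.11). Hspa1a turned in females alone (0.053) and in males alone was -1.21 (exact permutation p = 0.0317, unadjusted). Hspa1b turned in batch 1 alone (0.042), in males alone (0.54), without libraries under 1000000 counts (0.077) and without eIF2B HOM replicate 1 or 9 or wild-type replicate 7 or 10 (range -0.18 to 0.081). For batch, with age as a further covariate, Hspa8 (-0.21) and Dnajb1 (-0.29) turned, and for sex Dnaja1 with the full-design filter (0.0022).

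Hspa1a, Hspa1b and Bag3 rest on under 100 counts per genotype. No paired analysis was possible because the labels give no litter or pair number.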
